A study of Drosophila melanogaster with 8 samples.

Results

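In females, 3 libraries from flies on high-fat food were set against 1 library from flies on normal food. They were taken from the female table as the libraries on a high-fat diet (HFD), on the same diet with quercetin glucoside (HFD+QG) and on it with epigallocatechin gallate (HFD+EGCG), against the normal diet (ND). These are 4 of the 8 libraries of the series. The other 4 are the same diets in males. All flies were adult Canton S, a wild-type strain without transgenes, 15 days old when RNA was taken. Each group spent 7 days on its diet and then 2 h on standard food. The tissue was the body with wings and legs removed. QG is a flavonol glucoside and EGCG is a catechin of green tea. Their doses and the fat content of the diet are not given in the sources used here. Each diet has 1 library, and nothing in the labels says how many flies went into it, so no value has a replicate of its own diet. The 3 high-fat libraries differ in what was added to the food. Their range therefore holds the effect of the supplements as well as the spread between libraries.

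In an adult female fly much of the RNA comes from the ovary, where germ cells load the egg with RNA and the surrounding follicle cells secrete the eggshell, first the vitelline membrane and then the chorion. Yolk proteins come from the fat body and the follicle cells. The fat body, which does the work of liver and adipose tissue, stores lipid and secretes blood proteins and antimicrobial peptides, and the midgut secretes the enzymes that digest starch, lipid and protein. Ovary output is known to depend on food.

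Levels are in FPKM (RNA fragments corrected for the length of the transcript and the size of the library), which the authors rounded to whole numbers, and were summed per gene. The 4 libraries summed to between 885956 and 900619 FPKM, and 9473 to 9844 genes were above 0. The depth of reads is unknown. Of 17655 genes in the table, 7496 reached 10 FPKM in at least 1 of the 4 libraries and are described here, 7223 of them protein-coding. Differences are on the log2(FPKM + 1) scale, on which folds of genes near 0 come out too small. By marker genes the sex matched its label and eye tissue was present, while removal of wings and legs could not be checked. All 16 sperm genes listed were at 0 in each library, Yp1 was at 2385 FPKM or more, and the main opsin gene ninaE, a marker of the eye, was at 1047 or more. The haemocyte genes NimC1 and eater were at 0 in all 4 libraries. The root mean square log2 distance over the genes was 0.817 between ND and HFD, 0.718 between ND and HFD+QG and 0.80 between ND and HFD+EGCG. Among the high-fat libraries it was 0.412, 0.403 and 0.382. The ND library stood apart from the other 3, and its diet cannot be told apart from anything else particular to that library.

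Genes were called higher or lower when all 3 high-fat libraries were at least 2-fold from the ND library on that scale. By this rule 366 genes were higher (4.88% of those described) and 120 lower (1.60%). Of the higher genes 341 were protein-coding, and of the lower ones 111. The higher group was the larger and even. Its median FPKM was 10 on ND, 28 on HFD, 27 on HFD+QG and 28.5 on HFD+EGCG, and its median difference was 1.32. Its median on ND equals the filter of 10 FPKM, and genes below that on ND entered only through high-fat libraries. The size of this group therefore depends on low levels, and a pseudocount of 5 left 193 higher and 100 lower. The lower group was smaller but moved further, with medians of 64.5, 9, 12 and 7 FPKM and a median difference of -2.76. The high-fat libraries were also less alike among the lower genes. Of these, 55 (45.8%) spanned at least 2-fold among the 3 high-fat libraries, against 10 of the higher genes (2.73%) and 2.51% of all genes described. Among the 120 lower genes, 42 were listed at 0 in at least 1 high-fat library, and 24 were yolk or eggshell genes. Rounding widens log2 ranges near 0, and its part in this width was not tested. At 4-fold the balance turned, with 17 genes higher (0.227%) and 54 lower (0.720%). At 1.5-fold there were 816 higher (10.9%) and 974 lower (13.0%). Most genes lay slightly below their ND level. In all 3 libraries 4524 genes were below ND and 2111 above, and the median of all genes was -0.26 on HFD and -0.24 on HFD+QG and HFD+EGCG. The median of the mean difference was -0.25, and centring each library on its median brought it to -0.05, so differences of lists are given beside this value.

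**Figure D1:**
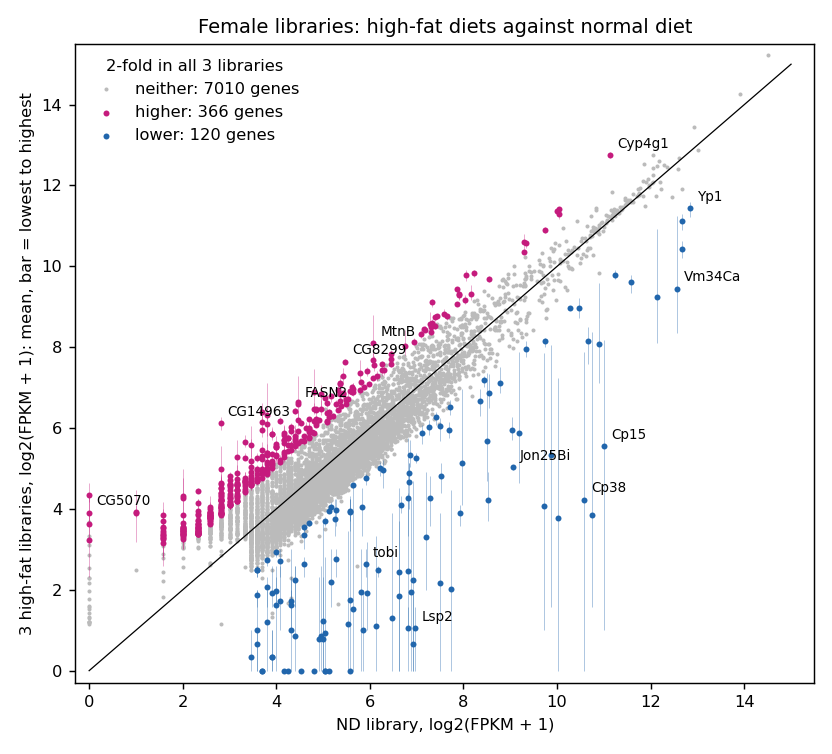
FPKM of the 7496 genes in females, with the ND library on the x axis and the mean of the 3 high-fat libraries on the y axis, both as log2(FPKM + 1). Bars on the called genes run from the lowest to the highest high-fat library. The 366 higher genes lie in a band close above the diagonal with short bars, while the 120 lower genes spread far below it with long bars. Of the lower genes, 42 are at 0 in at least 1 high-fat library, where rounding lengthens the bars.

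The protein-coding genes farthest above ND in their nearest high-fat library held cuticle, immune, fat synthesis and protease genes. In this paragraph and those that follow, values given together as a series of 4 are FPKM in the order ND, HFD, HFD+QG, HFD+EGCG. CG5070, which has no feature in the table, was listed at 0 on ND and at 12, 19 and 12 in the high-fat libraries. CG14963, annotated as insect allergen-related, was at 6, 70, 61 and 76 FPKM, a mean difference of 3.32 (SE 0.15; limma with Benjamini-Hochberg adjustment over all genes, adjusted p 0.0176). In both genes the 3 high-fat libraries were close to each other and far from ND. Cpr72Ec, a chitin-binding cuticle protein gene, was at 12, 97, 68 and 89 FPKM. The Mpv17-family gene plh was at 12, 59, 63 and 92 FPKM, and CG14022, with an acylphosphatase domain, at 9, 49, 45 and 56 FPKM. plh was highest with EGCG, at 92 FPKM. CG8299, a trypsin-like protease gene, was at 43, 199, 192 and 207 FPKM, and CG3604, with a Kunitz protease inhibitor domain, at 12, 65, 65 and 54. The high-fat libraries of CG8299 spanned only 192 to 207. CG4563, an AMP-dependent synthetase/ligase, was at 2, 13, 11 and 12 FPKM, and CG13306, with no feature in the table, at 4, 22, 20 and 20. The other 3 of the 12, FASN2, AttD and pirk, are described with their groups.

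The 12 protein-coding genes farthest below ND included all 3 larval serum proteins that reached 10 FPKM. These hexamerins are storage proteins of the fat body, made in quantity by larvae. Lsp2 was at 123, 2, 2 and 0 FPKM, Lsp1beta at 367, 29, 16 and 12, and Lsp1alpha at 12 on ND and listed at 0 in each high-fat library. Their summed FPKM was 502 on ND and 31, 18 and 12 in the high-fat libraries, so the ND library stood far above all 3. CG3264, an alkaline phosphatase gene, was at 121, 3, 0 and 0 FPKM, and CG34166, with no feature in the table, at 241, 11, 16 and 15. TwdlF, a cuticle protein gene of the Tweedle family, was at 18 FPKM on ND and listed at 0 in all 3 high-fat libraries. CG13159 and CG31813, both at 32 on ND, and CG2962, at 12, were likewise listed at 0 in all 3. In all, 10 of the 120 lower genes were listed at 0 in all 3 high-fat libraries, and 42 in at least 1. The remaining 3 of the 12 were Cp7Fb and CG15571 of the chorion list and the midgut protease Jon25Bi.

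**Figure D2:**
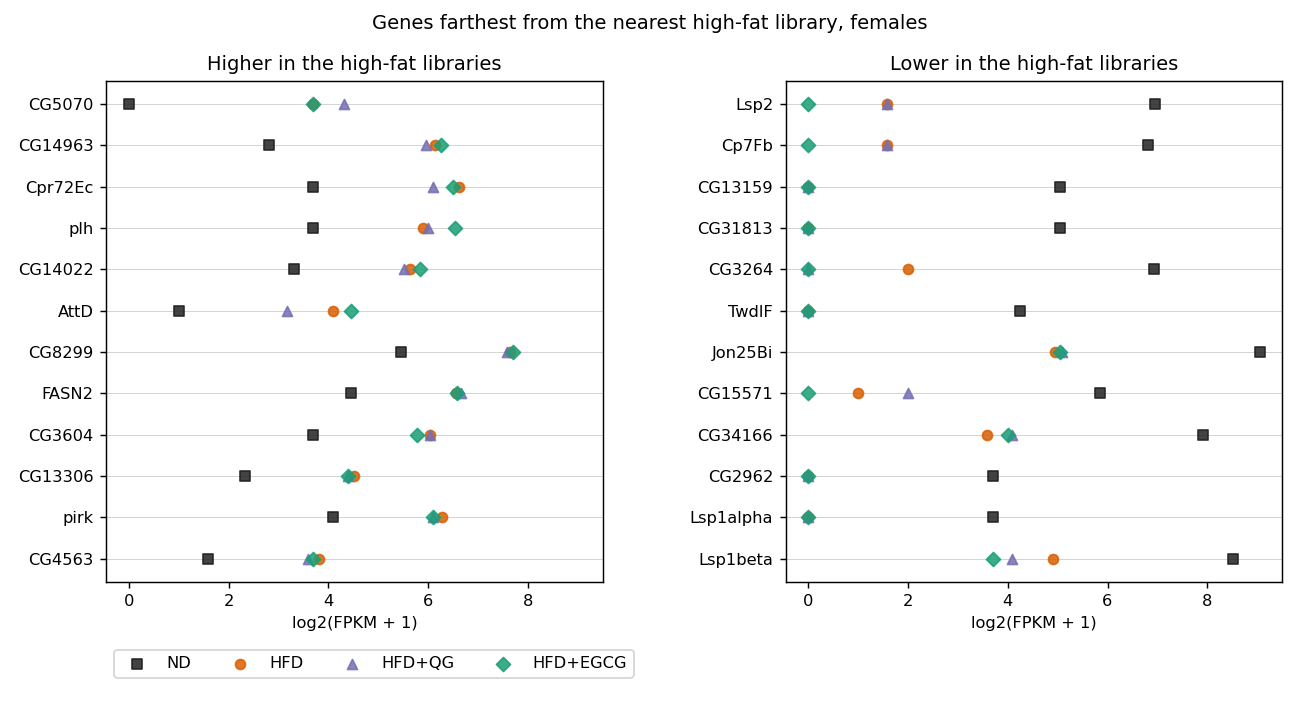
The 12 protein-coding genes farthest above (left) and below (right) the ND library, ordered by the distance from ND to the nearest high-fat library, with 1 symbol per library and log2(FPKM + 1) on the x axis. In every gene the square for ND stands apart from the 3 other symbols, which lie close together in genes such as CG8299 (192 to 207 FPKM) and Jon25Bi (30 to 33 FPKM).

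Genes of egg production were lower in every high-fat library. All 3 yolk protein genes, 7 of 8 vitelline membrane genes and 14 of 14 chorion genes described were lower, against 1.60% of all genes. Together these 25 genes made up 4.85% of the summed FPKM on ND, 0.751% on HFD, 1.55% on HFD+QG and 0.939% on HFD+EGCG. In whole-body RNA, fewer egg chambers and less RNA per cell cannot be told apart.

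The yolk protein genes, whose products feed the embryo, were the evenest of the 3 lists. Yp1 was at 7367, 2385, 2966 and 3068 FPKM. Yp2 was at 6531, 1189, 1576 and 1371 FPKM, and Yp3 at 6552, 1895, 2344 and 2518. HFD was the lowest library for each of them, and all 3 passed limma, with mean differences of -1.40 for Yp1 (SE 0.19), -2.25 for Yp2 (SE 0.19) and -1.55 for Yp3 (SE 0.20; adjusted p 0.0237, 0.0184 and 0.0235).

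Vitelline membrane genes, expressed in follicle cells of mid oogenesis, were lower with QG than on ND but well above the other high-fat libraries. Their summed FPKM was 13465 on ND, 796 on HFD, 5600 on HFD+QG and 1092 on HFD+EGCG. Vm34Ca was at 6015, 326, 2440 and 426 FPKM, and Vm26Aa at 4508, 275, 1944 and 415. The same order held in Vm26Ab (1900, 138, 763 and 189 FPKM) and Vm32E (583, 24, 233 and 33 FPKM). The smaller genes Vml (249, 20, 123 and 16 FPKM), psd (111, 9, 53 and 12 FPKM) and Fcp3C (47, 1, 18 and 0 FPKM) likewise had QG as their highest high-fat library. Vm26Ac, at 52, 3, 26 and 1 FPKM, missed the 2-fold rule through its QG library alone. None of the 8 passed limma, in which the width of the high-fat range counts as error. The median difference of the list was -3.90 on HFD, -1.26 on HFD+QG and -3.85 on HFD+EGCG. psd and Vml did not meet the rule after median-centring, nor Vml with a pseudocount of 5.

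Chorion genes, which follicle cells express late in oogenesis from 2 amplified clusters, were low in all 3 libraries but not in the same way. In the X cluster (X:8470888-8483311) the order was ND, HFD, HFD+QG and then HFD+EGCG. Cp36 was at 1041, 149, 16 and 0 FPKM and Cp38 at 1517, 236, 27 and 0. Cp7Fa was at 180, 14, 5 and 0 FPKM, Cp7Fb at 111, 2, 2 and 0, and Cp7Fc at 212, 21, 2 and 0. All 5 genes of this cluster were thus listed at 0 with EGCG. In the cluster on 3L (3L:8726791-8732599) HFD was lowest, or level with EGCG in Cp19, and QG was high. Cp15 was at 2057, 1, 180 and 291 FPKM, Cp16 at 846, 1, 232 and 9, Cp18 at 931, 2, 266 and 79, and Cp19 at 1714, 2, 334 and 2. The library with the lowest level therefore differed between the clusters. The 5 coding genes at 50 FPKM or more with the widest high-fat range were Cp38, Cp36, Cp15, Cp16 and Cp19. Femcoat, an eggshell gene on X, was at 121, 0, 25 and 3 FPKM, and dec, the defective chorion gene needed for eggshell assembly, at 364, 30, 163 and 25. Of the 14 chorion genes, 2 passed limma.

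**Figure D3:**
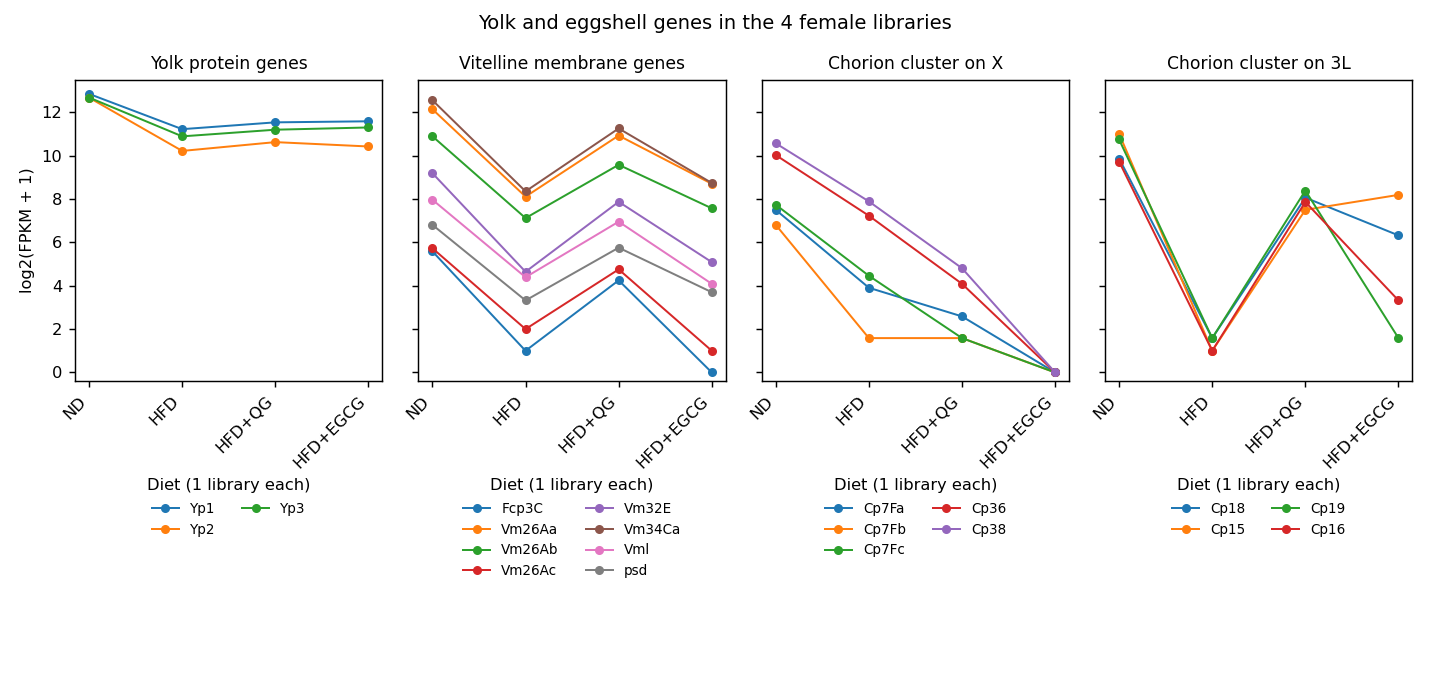
Yolk, vitelline membrane and chorion genes in the 4 female libraries, as log2(FPKM + 1), with 1 line per gene joining the diets and no order implied between them. Every line drops from ND. QG is the highest high-fat library for all 8 vitelline membrane genes, EGCG is at 0 for all 5 genes of the X chorion cluster, and HFD is at 1 or 2 FPKM for all 4 genes of the 3L cluster.

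Germline and cell division genes were lower by less but almost without exception. Of 27 germ plasm and piRNA genes described, 25 were below ND in all 3 libraries, where 4524 of 7496 genes were. By at least 1.5-fold 23 were lower, against 13.0% of all genes, and 2 met the 2-fold rule (7.41%, against 1.60%). The list's median difference was -0.96, beside -0.25 over all genes. exu, which localises bicoid RNA in the oocyte, was at 115, 32, 51 and 37 FPKM, and nos, the posterior determinant, at 137, 48, 66 and 61. Both met the 2-fold rule, and nos and exu no longer did after median-centring. osk, which assembles the germ plasm, was at 407, 154, 212 and 193 FPKM, and cup, a translational repressor of osk RNA, at 199, 75, 102 and 92. HFD was the lowest library and QG the highest high-fat library in each of these genes. grk, the ligand that patterns the follicle cells, went the other way, at 15, 17, 17 and 19 FPKM.

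All 26 cell cycle and replication genes were below ND in every high-fat library, where 4524 of 7496 genes were. By at least 1.5-fold 25 were lower, against 13.0% of all genes. The list's median was -0.87, and -0.67 after median-centring. Cyclin B (CycB) was at 872, 368, 449 and 460 FPKM, the mitotic kinase gene Cdk1 at 60, 27, 27 and 30, and the phosphatase gene stg, which activates Cdk1, at 137, 62, 71 and 72. The ND library stood about as far above each of the others. cort, a female meiotic activator of the anaphase-promoting complex, was at 25, 11, 12 and 12 FPKM. It was the member that met the 2-fold rule, which it did not with a pseudocount of 5, with a common sum or after median-centring.

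Genes of protein synthesis and turnover differed by list. Ribosome biogenesis genes had a median of -0.59 over 16 genes, 15 of them below ND in all 3 libraries. Of all genes, 4524 of 7496 were below ND in this way and 2111 above. Nop56, of the small nucleolar particles that modify ribosomal RNA, was at 134, 83, 87 and 76 FPKM. Aminoacyl-tRNA synthetase genes had a median of -0.35 (17 of 18 below) and mitochondrial ribosomal protein genes -0.32 (68 of 72 below). Proteasome genes, all 31 below ND, had a median of -0.26, near that of all genes. Cytosolic ribosomal protein genes, by far the most abundant list with summed FPKM of 199758, 210679, 211390 and 212449, had a median of 0.07 and 61 of 82 above ND. Within this list the paralogues of S5 moved apart. RpS5b, the paralogue enriched in the ovary, was at 611, 260, 376 and 290 FPKM, while RpS5a, used throughout the body, was at 1166, 1615, 1533 and 1619.

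Digestive enzymes showed large but selective differences. Of 17 digestive carbohydrases described, 6 were lower (35.3%, against 1.60% of all genes) and none higher. The list's median was -0.66, or -1.0 with no filter on low values. tobi, an alpha-glucosidase gene under insulin and glucagon-like control, was at 59, 7, 4 and 5 FPKM, and Mal-B1, a maltase, at 20, 2, 5 and 5. The maltase Mal-A6 was at 114, 34, 15 and 28 FPKM and Mal-A8 at 47, 19, 10 and 15. The amylase genes Amy-p (1407, 516, 418 and 593 FPKM) and Amy-d (437, 123, 116 and 180 FPKM) completed the 6. For all 6, each high-fat library was below ND, and the lowest was QG except in Mal-B1. Other members barely differed, among them Mal-A5 (67, 69, 76 and 74 FPKM) and Mal-B2 (20, 22, 22 and 22). Close relatives in these families share sequence, so their FPKM depend on how the authors' software divided reads.

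Digestive lipases had a median of -0.80 over 9 genes, with 4 lower (44.4%, against 1.60% of all genes) and 1 higher (11.1%, against 4.88%). CG17192 was at 154, 11, 27 and 20 FPKM, CG8093 at 38, 7, 4 and 7, and CG6295 at 1235, 493, 516 and 491. magro (mag), a gut lipase that also splits cholesterol esters, was at 77, 22, 36 and 34 FPKM, and did not meet the rule after median-centring. CG10116 was the lipase that was higher, at 41, 107, 83 and 91 FPKM. The list's sum was 1808 on ND and 821 to 831 in the high-fat libraries, a narrow range for 3 libraries.

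Serine proteases divided. In the list of 27 digestive members, 4 Jonah genes were lower (14.8%, against 1.60% of all genes) and 2 trypsins higher (7.41%, against 4.88%). The median of -0.21 was close to that of all genes. Jon25Bi (2L:4954279-4955144) was at 531, 30, 33 and 32 FPKM, a mean difference of -4.03 (SE 0.07; limma, adjusted p 0.0176). Its neighbour Jon25Bii was at 521, 51, 76 and 58 FPKM, and Jon99Cii and Jon99Ci on 3R were at 1611, 192, 358 and 333 and at 71, 5, 5 and 4. Relatives with as high a level on ND did not follow, such as Jon99Fii (1316, 1319, 1496 and 1491 FPKM) and Jon74E (808, 862, 939 and 993 FPKM). The trypsins zetaTry (28, 77, 90 and 91 FPKM) and iotaTry (44, 107, 98 and 107 FPKM) were higher in all 3 libraries.

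A run of 6 neighbouring trypsin-like protease genes on 3R (3R:17127126-17135283), chosen after its values were seen, was higher as a whole. CG31266 was at 17, 59, 57 and 57 FPKM, CG31267 at 11, 41, 35 and 36, and CG4053 at 12, 38, 38 and 39. CG17475 was at 25, 69, 56 and 66 FPKM, CG31265 at 8, 26, 23 and 23, and CG31269 at 6, 16, 16 and 16. The 3 high-fat libraries were nearly level in each. CG31265 and CG31269 reached 10 FPKM only in the high-fat libraries, and CG31269 did not meet the rule with a pseudocount of 5. Over the 101 genes described that the table annotates as peptidase S1, a group also chosen after values were seen, 12 were higher and 6 lower, where 4.88% and 1.60% of all genes were. The 12 include the 6 genes of this run. The summed FPKM of the 101 genes was 40879 on ND and 32013, 30751 and 33484 on the high-fat diets.

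Genes of lipid synthesis were mostly above ND. Of 21 fatty acid and triglyceride synthesis genes described, 16 were above ND in all 3 libraries, where 2111 of 7496 genes were. The rule was met by 3 (14.3%, against 4.88% of all genes), and the median was 0.42. FASN2, a fatty acid synthase gene expressed in oenocytes, was at 21, 93, 100 and 95 FPKM, a mean difference of 2.14 (SE 0.06; limma, adjusted p 0.0176). FASN3 was at 7, 16, 18 and 15 FPKM, while FASN1, the synthase gene of the fat body, was at 108, 153, 155 and 127. The sugar-responsive transcription factor gene sugarbabe (sug) was at 40, 118, 97 and 129 FPKM. Acetyl-CoA carboxylase (ACC) was at 45, 51, 59 and 53 FPKM, and the phosphatidate phosphatase gene Lpin at 43, 69, 67 and 68. FASN3 did not meet the rule with a pseudocount of 5 or a common sum.

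Oenocytes, subcuticular cells that turn long fatty acids into the hydrocarbons of the body surface, were represented by 9 genes. Of these 5 were higher (55.6%, against 4.88% of all genes) and 8 above ND in all 3 libraries. Cyp4g1, the last enzyme of that pathway, was at 2251, 6529, 7322 and 6747 FPKM, a mean difference of 1.61 (SE 0.08; limma, adjusted p 0.0176). The fatty acid elongase genes CG30008 (160, 581, 569 and 513 FPKM), CG18609 (10, 28, 28 and 25 FPKM) and eloF (76, 188, 174 and 155 FPKM) had the same pattern. Fad2, the desaturase of female pheromones also named desatF, was at 287, 578, 740 and 588 FPKM. The list's median was 1.13. eloF did not meet the rule with a pseudocount of 5 or a common sum.

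Genes that release and burn lipid showed small differences. None of 12 lipolysis and lipid transport genes or of 18 beta-oxidation genes met the rule. The lipase gene bmm, of the fat body's lipid droplets, was at 54, 51, 53 and 53 FPKM, and Akh, the adipokinetic hormone, at 14, 29, 27 and 28. The lipoprotein receptor gene LpR1 was at 19, 32, 31 and 32 FPKM. Medians were -0.02 and -0.08, turning to 0.18 and 0.12 after median-centring. Niemann-Pick sterol genes had a median of 0.57 with none meeting the rule. Npc2g was at 141, 295, 277 and 305 FPKM, and Npc2f at 57, 114, 117 and 114.

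Genes of the respiratory chain were higher by a small and even amount. Of 62 nuclear-encoded subunits, 61 were above ND in all 3 libraries, where 2111 of 7496 genes were. By at least 1.5-fold 4 were higher, where 10.9% of all genes were, and none by 2-fold. The list's median was 0.42. SdhB of succinate dehydrogenase was at 252, 431, 402 and 472 FPKM (mean difference 0.78, SE 0.12; limma, adjusted p 0.0257), and ND-24 of complex I at 159, 262, 242 and 300. Citric acid cycle genes had a median of 0.38, with 11 of 12 above ND. Nc73EF, of the 2-oxoglutarate dehydrogenase complex, was at 103, 209, 198 and 242 FPKM. Glycolysis genes had a median of -0.01, which turned to 0.19 after centring, and their member that met the rule, Sodh-1, a sorbitol dehydrogenase, was lower at 23, 7, 10 and 11 FPKM, a call lost with a pseudocount of 5 and after median-centring. Pepck, of gluconeogenesis, was at 102, 153, 165 and 227 FPKM.

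Muscle, eye and nerve genes were higher together. Of 30 sarcomere and muscle genes 16 were higher (53.3%, against 4.88% of all genes) and 29 above ND in all 3 libraries. The list's median was 1.14, against -0.25 for all genes. Zasp66, of the Z-disc, was at 298, 901, 859 and 959 FPKM (mean difference 1.60, SE 0.08; limma, adjusted p 0.0176). The flight muscle actin Act88F was at 6, 25, 25 and 46 FPKM and the troponin C gene TpnC4 at 3, 17, 13 and 31, both highest with EGCG. The myosin kinase gene Strn-Mlck was at 17, 53, 50 and 65 FPKM. The major muscle genes were nearer to 2-fold, with myosin heavy chain (Mhc) at 144, 263, 255 and 279 and Act57B at 644, 1583, 1400 and 1569. The list's summed FPKM was 4489 on ND and 9367, 8493 and 9445 in the others.

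Photoreceptor genes had 18 of 22 members higher (81.8%, against 4.88% of all genes), and a median of 1.31. ninaE, the opsin of the outer photoreceptors, was at 1047, 2823, 2566 and 2798 FPKM. The myosin gene ninaC was at 25, 73, 73 and 75 FPKM, the opsin gene Rh4 at 33, 106, 91 and 98, and trp, a channel opened by the light response, at 21, 61, 57 and 62. The high-fat libraries lay within a narrow band in each of these, far above ND. Not every member followed, with rdgB, a lipid transfer protein gene, at 22, 15, 16 and 16 FPKM. Neuron genes had 5 of 9 higher (55.6%, against 4.88% of all genes) and a median of 1.06, which was 0.51 when each gene was represented by its most abundant transcript. nSyb, the neuronal synaptobrevin, was at 29, 73, 71 and 73 FPKM, and ple, the tyrosine hydroxylase of dopamine synthesis, at 8, 22, 25 and 22. Of 8 peptide hormone genes of gut and brain 3 were higher (37.5%, against 4.88% of all genes). They were AstA at 11, 25, 25 and 25 FPKM, sNPF at 5, 14, 13 and 12 and ITP at 11, 26, 25 and 25. ple and sNPF reached 10 FPKM only in the high-fat libraries, so the filter adds to the counts of the neuron and peptide hormone lists. Appl, Syt1, sNPF, AstA and ITP did not meet the rule with a pseudocount of 5.

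These tissue lists moved in the same libraries in which egg genes took up less of the summed FPKM. With libraries rescaled to a common sum without the egg genes, the medians were 1.08 for muscle genes (1.14 as deposited), 1.25 for photoreceptor genes (1.31), 1.01 for neuron genes (1.06) and 0.35 for respiratory chain genes (0.42). With the same scaling the median of germ plasm genes was -1.02, that of cell cycle genes -0.93 and that of all genes -0.31 (-0.25 as deposited). This scaling moved all these lists down by a similar small amount. Ovary RNA outside the egg lists stays in the sum, so the scaling cannot tell how much ovary RNA each library held. A different share of tissues in the ND library and a different level within tissues cannot be told apart.

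Antimicrobial peptide and immune effector genes leaned higher, with the QG library apart. Of 28 described, 6 were higher (21.4%, against 4.88% of all genes) and 2 lower (7.14%, against 1.60%). Above ND in all 3 libraries were 17, where 2111 of 7496 genes were, and the median was 0.85 on HFD, 0.30 on HFD+QG and 0.88 on HFD+EGCG. AttD, an attacin gene, was at 1, 16, 8 and 21 FPKM. DptA, a diptericin, was at 13, 137, 28 and 128 FPKM, and its neighbour DptB at 38, 213, 34 and 122, which with QG was at the ND level. Mtk, an antifungal peptide gene, was at 296, 783, 343 and 658. In these genes the HFD and EGCG libraries were high and the QG library was low. IM3, a Toll pathway peptide gene also called BomS3, was at 1016, 2532, 2759 and 2636 FPKM and had no such split (mean difference 1.38, SE 0.06; limma, adjusted p 0.0176). The drosomycin-like genes Drsl4 (101, 16, 14 and 19 FPKM) and Drsl5 (180, 75, 50 and 75 FPKM) were lower, while Drs itself was at 1381, 2282, 2092 and 2276.

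Peptidoglycan recognition genes, which sense or degrade bacterial cell wall, had 4 of 11 higher (36.4%, against 4.88% of all genes) and a median of 0.97. PGRP-LC, the receptor of the Imd pathway, was at 8, 33, 26 and 27 FPKM, and pirk, which lowers signalling from it, at 16, 77, 68 and 68. The amidase genes PGRP-SC1a (2, 9, 17 and 16 FPKM) and PGRP-SC1b (8, 29, 51 and 37 FPKM) were highest with QG. PGRP-LC, PGRP-SC1a and PGRP-SC1b reached 10 FPKM only in high-fat libraries, so the filter adds to the count of this list. Its median was 0.73 with genes at 1 FPKM or more. Of 7 Turandot and JAK-STAT genes, 2 were higher (28.6%, against 4.88% of all genes). TotM, a secreted stress peptide gene, was at 13, 90, 64 and 55 FPKM, and Socs36E, a feedback inhibitor of the pathway, at 7, 19, 15 and 15. The JAK kinase gene hop (26, 17, 20 and 21 FPKM) and Stat92E (75, 58, 64 and 68 FPKM) were below ND. Socs36E did not meet the rule with a pseudocount of 5 or a common sum. Of 6 lysozyme genes 1 was higher (16.7%, against 4.88% of all genes), which was LysP at 233, 542, 517 and 549 FPKM. The abundant gut lysozymes LysC (6130, 4591, 6868 and 5076 FPKM) and LysD (4730, 3503, 5327 and 4384 FPKM) straddled ND, with QG above it.

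Among stress and metal genes, 3 of 5 metallothioneins were higher (60%, against 4.88% of all genes). These small proteins bind copper, zinc and cadmium. MtnB was at 66, 445, 204 and 227 FPKM, MtnD at 154, 468, 350 and 333, and MtnA at 854, 2021, 1915 and 1828. HFD was the highest library for all 3. MtnE was at 55, 150, 113 and 98 FPKM, and MtnC, at 1255, 1060, 899 and 1039, lay below ND. The ferritin subunit genes Fer2LCH (2297, 4361, 3274 and 3527 FPKM) and Fer1HCH (1817, 3135, 2368 and 2635 FPKM) were above ND without meeting the rule. Of 12 heat shock genes 2 were higher (16.7%, against 4.88% of all genes). l(2)efl, a small heat shock protein gene expressed in muscle, was at 87, 224, 216 and 242 FPKM, and the co-chaperone gene starvin (stv) at 34, 81, 70 and 79. stv did not meet the rule with a pseudocount of 5 or with egg genes left out of the sum. Hsp26, abundant in the ovary, was at 535, 241, 242 and 277 FPKM. None of 13 antioxidant genes met the rule. Catalase (Cat) was at 240, 402, 420 and 414 FPKM and Sod3, a secreted superoxide dismutase, at 213, 130, 152 and 138.

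Of 47 P450 genes 4 were higher (8.51%, against 4.88% of all genes) and 2 lower (4.26%, against 1.60%). Cyp6a21 was at 21, 67, 95 and 154 FPKM, lowest of the high-fat libraries on HFD and highest with EGCG. Cyp9b2 was at 208, 102, 79 and 94 FPKM and Cyp309a1 at 13, 4, 2 and 4. Cyp9b2 did not meet the rule with a pseudocount of 5 or after median-centring. Of 24 glutathione S-transferase genes 1 was higher (4.17%), near the 4.88% of all genes. It was GstD2, at 13, 31, 32 and 31 FPKM. None of 10 UDP-glycosyltransferase genes met the rule.

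Among signalling and regulatory genes, Thor, the translation inhibitor 4E-BP repressed by insulin and TOR signalling, was at 232, 717, 628 and 723 FPKM (mean difference 1.56, SE 0.11; limma, adjusted p 0.0176). It was the 1 higher gene of 15 in that list (6.67%, against 4.88% of all genes). REPTOR-BP, the gene of the binding partner of the TOR-controlled factor REPTOR, was at 52, 85, 82 and 81 FPKM, short of 2-fold, while foxo was at 17, 16, 17 and 18 and Akt1 at 41, 35, 34 and 33. Ilp8, a relaxin-like peptide of follicle cells in adults, was lower at 34, 14, 14 and 15. Ilp8 did not meet the rule with a pseudocount of 5 or after median-centring. Of 11 clock genes 2 were higher (18.2%, against 4.88% of all genes). The activator gene Pdp1 was at 17, 43, 40 and 38 FPKM and the repressor gene per at 4, 9, 9 and 10, while dco, the kinase that marks per protein for decay, was at 111, 60, 69 and 67. Both lost their call with a pseudocount of 5. Time of day at collection is not given in the labels. Kr-h1, a target of juvenile hormone, was at 13, 30, 29 and 29 FPKM. It was the 1 higher gene of 11 in its list (9.09%, against 4.88% of all genes), but not with a pseudocount of 5.

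Cuticle and odorant-binding genes made up a last group. Of 84 cuticle genes of the Rebers-Riddiford family looked for, 10 reached 10 FPKM and 4 of these were higher (40%, against 4.88% of all genes). Most of the family serves larvae and pupae. Beside Cpr72Ec these were Cpr66D at 3, 14, 17 and 26 FPKM, Cpr49Ag at 6, 19, 16 and 18, and Cpr67B at 39, 91, 83 and 85. Cpr66D and Cpr49Ag reached 10 FPKM only in the high-fat libraries, so the filter adds to this count. Cpr49Ag did not meet the rule with a pseudocount of 5. The list's median was 0.92, and 0.28 with genes at 1 FPKM or more. Of 18 odorant-binding and antennal genes 2 were higher (11.1%, against 4.88% of all genes) and 1 lower (5.56%, against 1.60%). Obp56e was at 21, 65, 70 and 85 FPKM and Obp49a at 40, 94, 104 and 106, whereas Obp99a was at 324, 78, 123 and 109. Among 11 haemocyte and basement membrane genes 1 was higher (9.09%, against 4.88% of all genes). It was Pxn, a peroxidase that crosslinks collagen, at 12, 32, 30 and 31 FPKM. The collagen gene Col4a1 was at 59, 37, 49 and 34. EbpIII, an ejaculatory bulb protein gene and the only seminal fluid gene of 19 to reach 10 FPKM, was at 627, 1273, 1276 and 1369, which was short of the rule with egg genes left out of the sum. Of 366 higher genes 279 were in none of the lists, and of 120 lower genes 69.

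**Figure D4:**
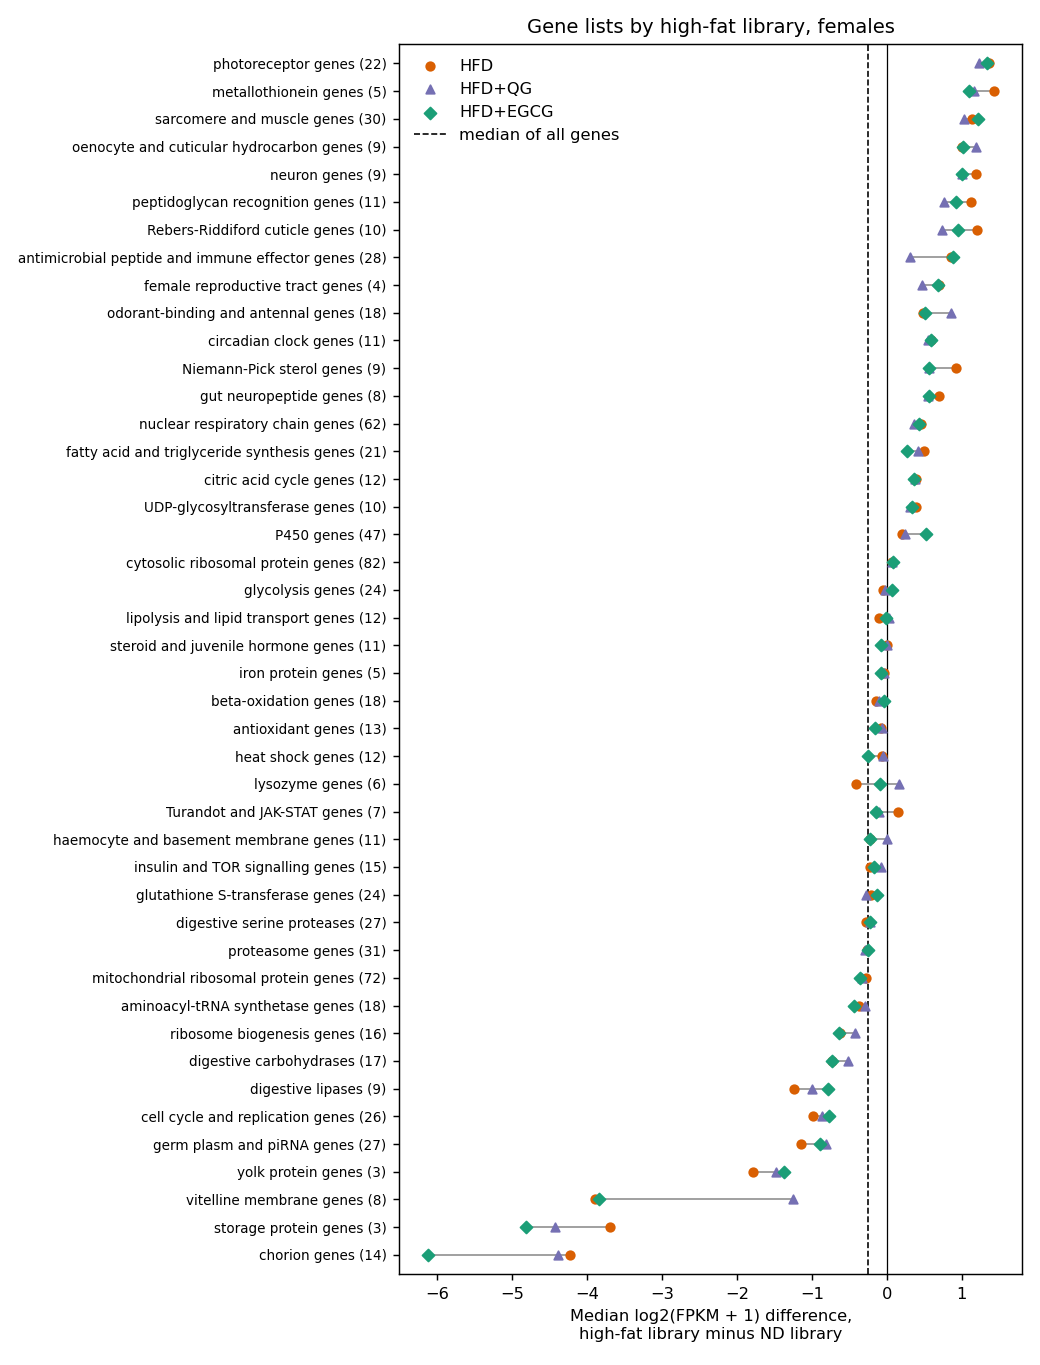
Median log2(FPKM + 1) difference from ND over each list with at least 3 genes described (number in parentheses), with 1 symbol per high-fat library and a line over their range. The dashed line is the median of all genes at -0.25. The 3 libraries lie close together in most lists, and are wide apart in the vitelline membrane, chorion and storage protein lists and, through QG, in the immune effector list. The lysozyme list spans as much, from -0.42 on HFD to 0.17 on HFD+QG.

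limma set the ND library against the spread of the 3 high-fat libraries. At an adjusted p under 0.05 (Benjamini-Hochberg over 7496 genes) 1178 genes rose (15.7%) and 2722 fell (36.3%), and the lowest adjusted p was 0.0176. Of the genes 2-fold from ND, 354 of 366 higher and 71 of 120 lower ones were among them. The other limma calls were genes that did not reach 2-fold in every high-fat library. After median-centring 1792 rose and 1430 fell, so that the share of higher calls went from 30.2% to 55.6%. The fit has 2 residual degrees of freedom and assumes that the single ND library varies like the others. Without the HFD+QG or the HFD+EGCG library it passed 0 genes (lowest adjusted p 0.0539 and 0.0562; 3418 and 3180 genes at an unadjusted p under 0.05), and without the HFD library 439 rose and 1023 fell. An exact permutation test of 1 gene over 4 libraries cannot go below p = 0.25, one-sided.

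Among single transcripts at 10 FPKM or more in at least 1 library, 540 of 9271 were higher (5.82%) and 275 lower (2.97%) by the same 2-fold rule. In 17 genes, chosen by this pattern after the values were seen, 1 transcript was higher and another lower while the gene's sum met the rule in neither direction. CG34172 had 1 transcript at 0, 67, 73 and 91 FPKM and another at 43 on ND and listed at 0 in the rest. Nc73EF, of the 2-oxoglutarate dehydrogenase complex, had transcripts at 19, 73, 74 and 107 FPKM and at 25, 6, 8 and 8. The signalling adaptor 14-3-3zeta had transcripts at 0, 13, 13 and 13 FPKM and at 42, 0, 0 and 0. Sam-S, which makes S-adenosylmethionine, had transcripts at 30, 67, 77 and 61 FPKM and at 50, 5, 3 and 0. The GTPase gene Rho1 had transcripts at 14, 42, 39 and 37 FPKM and at 14, 0, 0 and 0. Transcripts of a gene share most of their sequence, and a listed 0 can be an estimate that failed, so the division of reads among them is uncertain.

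The same rule was applied within the male libraries, which share no library with the females. Of 8363 genes described in males, 22 were higher (0.263%) and 53 lower (0.634%). Over 6123 genes described in both sexes, 348 were higher in females (5.68%) and 20 in males (0.327%), and 43 were lower in each (0.702%). Higher in both were 5 genes (1.44% of the female and 25.0% of the male list), and lower in both were 15 (34.9% of each). The tables of the sexes may have been normalized separately, so no test was run between them. The genes named here and not above were chosen after their values were seen. Of the genes lower in both, 8 encode glycosidases, a lipase or serine proteases. The 15 were Amy-p, Mal-A6, Mal-A8, tobi, the lipase CG8093, the proteases Jon25Bi, Jon99Ci and CG18180, Lsp1beta, Sodh-1, Cyp309a1, CG10621, CG34040, CG34166 and fit. CG18180 was at 858, 255, 299 and 297 FPKM in females and at 165, 23, 8 and 18 in males. fit, a fat body gene whose product signals protein feeding, was at 375, 161, 89 and 106 in females and at 15, 7, 5 and 3 in males.

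The genes higher in both sexes were MtnB, CG14963, the protease CG11911, CG4830 and the small nuclear RNA snRNA:U5:63BC. CG4830 was at 6, 15, 13 and 14 FPKM in females and at 0, 10, 5 and 6 in males. snRNA:U5:63BC was at 0, 10, 14 and 4 FPKM in females and at 0, 24, 4 and 19 in males. Both are near 0 on ND, and neither met the rule in females with a pseudocount of 5. CG11911 was at 264, 789, 956 and 920 FPKM in females and at 67, 293, 214 and 270 in males. MtnB in males was at 99, 448, 367 and 451. The muscle, eye and oenocyte genes named above were not among them. In males Zasp66 was at 968, 1415, 1304 and 1349 FPKM and ninaE at 3704, 5121, 5010 and 5054, above ND but short of 2-fold. FASN2 was at 76, 92, 111 and 116 FPKM and Thor at 708, 549, 580 and 541. The oenocyte gene Cyp4g1 was listed in males at 9209, 9726, 0 and 0 FPKM, so it could not be called higher there. A listed 0 can be an estimate that failed. Of the 120 genes lower in females, 66 (55.0%) were under 1 FPKM in the male ND library, against 2.65% of all genes described and 1.64% of the higher genes.

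**Figure D5:**
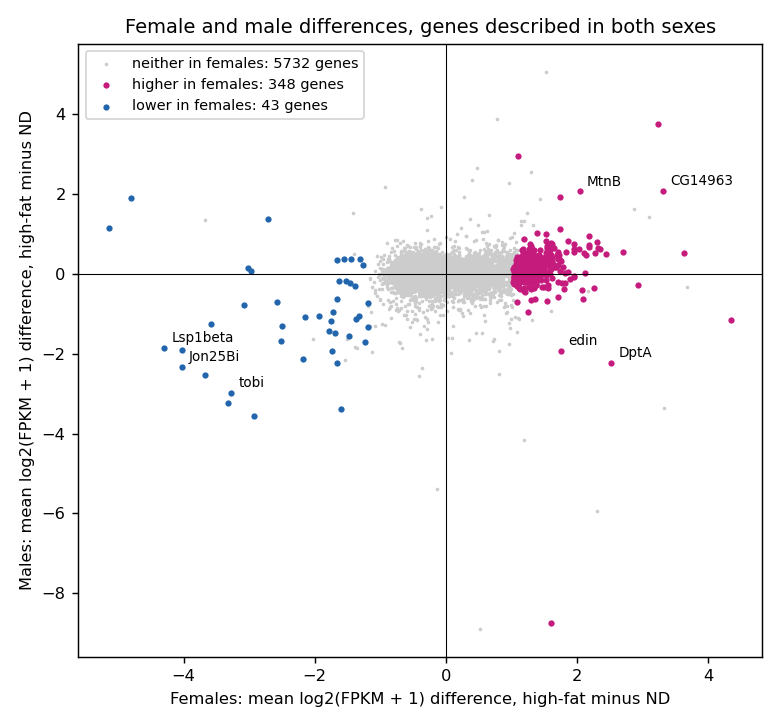
Mean log2(FPKM + 1) difference of the 3 high-fat libraries from ND in females (x axis) and males (y axis) for 6123 genes described in both sexes, coloured by the female call. Most of the 348 genes higher in females lie near 0 in males, genes such as tobi, Jon25Bi and Lsp1beta lie low in both, and DptA and edin lie high in females and low in males.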

How the data were processed

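Per the submitters' processing notes, CASAVA 1.8.2, TopHat2 2.1.1 and Cuffdiff 2.2.1 were used; their settings and the genome build are not given in the sources used here. The authors deposited FPKM per transcript rounded to whole numbers, handled here as a score without counts, so count tests could not be run and depth is unknown. Gene locations matched those of BDGP6.54 (Ensembl 115) for 17286 of 17634 genes (98.0%). Coordinates in the text are the deposited tables' own.

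The FPKM of 34475 transcripts were summed per FlyBase gene. Differences were taken on a log2 scale of the deposited values with a pseudocount of 1. limma 3.58.1 in R 4.3.3 was fitted to all 7496 genes with a trended prior and 1 term, high-fat against ND, and Benjamini-Hochberg adjustment at 0.05. With nothing to say that libraries are separate cultures, its p-values measure only the spread between these libraries, which may be technical. The fit was tested on simulated data. In these the ND library varied like the high-fat ones, so that assumption of the fit was not tested. Tables were made with Python 3.11.15.

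The members, the 46 gene lists and the tests were chosen with earlier results of these data known; 5 of 1174 list entries were not found. Named genes were the 12 highest and 12 lowest protein-coding genes by the distance from ND to the nearest high-fat library, up to 4 members of each list by that distance (all in lists of 8 or fewer), and the 5 genes of at least 50 FPKM with the widest high-fat range. Other genes named as contrasts or further examples within a list were chosen after values were seen. Alternatives were another pseudocount, filters, folds, scalings, the top transcript, the prior without a trend and leaving out each high-fat library. Gene symbols are those of the tables.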

Additional observations from a re-analysis of the deposited data

Results flagged for a closer look

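Both genes singled out here differed from ND in opposite directions in the sexes, with every high-fat library at least 2-fold above ND in females and at least 2-fold below it in males. The difference itself was not tested, since the tables of the sexes may have been normalized separately. DptA (2R:18865765-18866260), a diptericin, had a mean log2 difference of 2.52 in females (13, 137, 28 and 128 FPKM in the order ND, HFD, HFD+QG, HFD+EGCG) and of -2.22 in males (99, 19, 37 and 12 FPKM). edin (3L:17494880-17495300), a peptide gene induced by infection, had a mean log2 difference of 1.76 in females (2, 15, 5 and 10 FPKM) and of -1.92 in males (11, 1, 3 and 3 FPKM). In both genes HFD+QG was the high-fat library nearest to ND in females, with a log2 difference of 1.05 for DptA and 1 for edin. These lie at the edge of the 2-fold rule, and neither gene met it in females with a pseudocount of 5. The ND level of edin in females, 2 FPKM, is also a rounded value near 0. The male level on ND was above the female one in both genes. Neither gene passed limma in females, with an SE of 1.21 for DptA (adjusted p 0.165) and of 0.68 for edin (adjusted p 0.113).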

How the results depend on the processing

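No paired analysis was possible because each diet has 1 library and the columns carry no replicate numbers. Of the 366 higher and 120 lower genes, a pseudocount of 5 left 193 higher and 100 lower. With genes at 1 FPKM or more, and with no filter, there were 962 higher and 285 lower. A fold of 1.5 gave 816 and 974, and a fold of 4 gave 17 and 54. The share of higher calls was 75.3% as deposited, 84.5% after median-centring (501 higher, 92 lower), 68.5% with a common sum without egg genes (280 and 129) and 74.5% with a common sum (328 and 112). Leaving out 1 high-fat library gave 389 to 414 higher and 134 to 175 lower, since fewer libraries had to pass. limma's 1178 higher and 2722 lower genes became 1792 and 1430 after median-centring, and between 0 and 439 higher and 0 and 1023 lower with 1 high-fat library left out. The remaining degrees of freedom were then 1. Without a trend they were 1166 and 2697. Of 201 named genes, the 2-fold call was lost in 18 with a pseudocount of 5, 9 after median-centring, 6 without egg genes in the sum, 5 with a common sum and 2 by the top transcript. None of the calls changed direction under these settings. The medians of 12 lists between -0.20 and 0, such as the antioxidant (from -0.10 to 0.10) and insulin and TOR (from -0.15 to 0.05) lists, turned positive after centring. Rounding to whole FPKM limits genes near 0, and the single ND library limits every comparison.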

Other observations

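The share of lower genes was 2.74% on X and 2.27% on 2L, and between 0.881% and 1.47% on 2R, 3L and 3R. Of the 120, 35 (29.2%) lay on X, which held 17.0% of genes described, and 30 on 2L. Of the lower genes on X, 13 lay in runs of 3 or more genes called alike that neighbour each other among the coding genes described. Higher genes on X were 43 (11.7%). The table held 8 such runs. Beside both chorion clusters and the protease run, they included Femcoat, Muc4B, CG15570 and CG15571 (X:4216873-4246139), and CG32642, Mur11Da, CG15721 and CG12716 (X:12959220-12976231). CG32642 was at 97 FPKM on ND and at 0, 12 and 11 on HFD, HFD+QG and HFD+EGCG, and Mur11Da, an extracellular matrix gene, at 20 and at 0, 5 and 0.

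Calls also varied with level, taken here as the mean of the ND value and the average of the 3 high-fat libraries. Genes with such a mean under 10 FPKM entered only through a library in which they were high. Of these, 89 of 531 were higher (16.8%) and 19 lower (3.58%). At a mean of 100 FPKM or more, 46 of 1091 were higher (4.22%) and 37 lower (3.39%). Between these, from 10 to 30 FPKM 137 of 3185 were higher (4.30%), and from 30 to 100 FPKM 94 of 2689 (3.50%).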
